A study of Drosophila melanogaster with 6 samples.

Results

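The genes described here encode ligands, receptors and close effectors of axon guidance in Drosophila melanogaster. They were taken by name from a list of 38 genes, which comprised 10 ligands, 22 receptors and 6 effectors, out of 13922 protein-coding genes on chromosomes X and 4 and the arms of the second and the third chromosome. The question asked of each was whether the transcription factor Drgx had a listed DamID interval at the gene in developing T4/T5 neurons. In Targeted DamID, a Dam methylase fused to a protein of interest marks adenines in GATC motifs near the sites that the protein visits in chosen cells. The design compared 3 samples carrying UAS-Dam-DRGX with 3 samples carrying UAS-Dam. All 6 samples also carried UAS-CD8-GFP, the temperature-sensitive Gal4 repressor tubGal80ts and the R23G12-Gal4 driver, which defines the cells that are profiled. The animals were wandering larvae of the third instar that had developed at 18 °C and had spent 24 h at 29 °C before their brains were taken. Because a transgene supplied the Dam-Drgx fusion, occupancy by the endogenous protein was not measured directly. The values hold no expression, so the identity of the cells could not be checked against marker genes.

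The deposited data consist of a single list of 2396 intervals, each given a score and a false discovery rate by the authors. It names no sample, and no read depth or replicate value came with it, so no spread between replicates and no replicate test can be given. It was taken to be the result of the Dam-Drgx against Dam-only comparison. The 2 intervals on Y were set aside, which left 2394 on the 6 arms. Their scores ran from 1.24 to 6.47 with a median of 2.83, on a scale that is not stated in the sources used here, and the false discovery rate was at most 0.00883.

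Growing axons read secreted and membrane-bound cues through surface receptors, which steer the growth cone by remodelling actin through kinases, exchange factors and adaptor proteins. The same molecules also act in dendrite spacing and in the choice of synaptic layers. T4 and T5 neurons are the direction-selective neurons of the fly visual system. Their dendrites lie in the medulla or the lobula, and their axons end in separate layers of the lobula plate.

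A gene was counted as having an interval when at least 1 bp of the interval fell in the gene body or within 1 kb of either end. By this rule 27 of the 38 genes had an interval (71.1%, Wilson 95% interval 55.2% to 83.0%), where 10.9% of all protein-coding genes on the 6 arms had one. Guidance genes are long, with a median of 31.9 kb against 2.16 kb for all protein-coding genes, and long genes meet intervals more often. For each of the 38 genes, the 200 protein-coding genes nearest in length were therefore taken as the yardstick. On average 44.2% of those had an interval, a difference of 26.8 percentage points. The lower bound of the counting interval for the 38 genes lay above this value. The bounds cover counting error only and treat genes as independent, and no p-value was attached to the list. The list was also chosen with earlier results of these data known, which the bounds do not take into account.

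The 38 genes carried 55 intervals in all, which is 2.30% of the list. No interval was shared between 2 of them. One interval was found at 13 genes, 2 at 4 genes and 3 or more at 10 genes. Of all protein-coding genes, 2.77% had at least 2 and 1.12% at least 3. The mean was 1.45 intervals per gene against 0.817 in the genes nearest in length. Intervals covered 7.43% of the summed gene bodies.

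**Figure D1:**
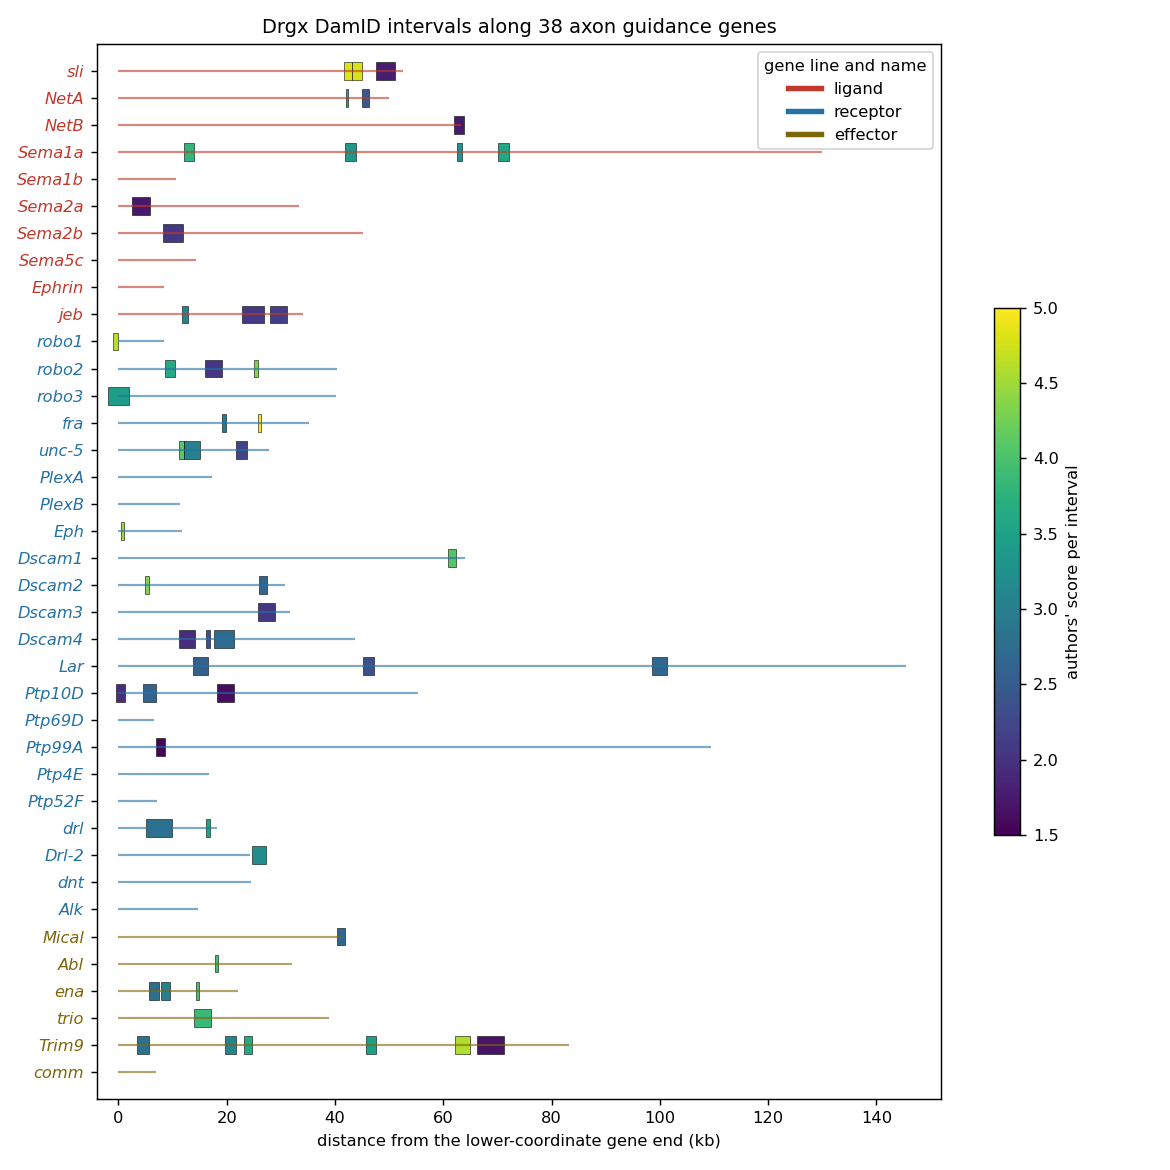
Each line is the body of 1 of the 38 genes, drawn from its lower-coordinate end (x axis, kb), and each box is an interval coloured by the authors' score. Ligands are red, receptors blue and effectors brown. Of the 11 genes without a box, 10 are under 20 kb long, while Trim9 carries 6 boxes.

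Most guidance genes with an interval were long. Among all protein-coding genes too, 55.3% of those of 20 kb or more and 7.37% of those under 20 kb had an interval. Of the 25 guidance genes of 20 kb or more, 24 had an interval (96.0%, Wilson 95% interval 80.5% to 99.3%), against 58.2% in the genes nearest in length to them. The derailed-family receptor gene dnt was the exception at 24.6 kb. Of the 13 genes under 20 kb, 3 had an interval (23.1%, 8.18% to 50.3%), against 17.5% in the genes nearest in length. These were robo1, Eph and drl. For the long genes the yardstick lay below the counting interval, and for the short ones it lay inside it. The 20 kb boundary was not among the planned results and sits where the share in these same genes steps up. Between 10 and 20 kb 2 of 8 genes had an interval, and between 20 and 40 kb 10 of 11. The bounds do not take this choice into account, and no test between the long and the short genes was made.

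By finer classes, 10 of 11 genes between 20 and 40 kb had an interval, where 42.8% of the 551 protein-coding genes of that class had one. All 10 genes between 40 and 80 kb and all 4 above 80 kb had one, against 69.8% of 328 and 71.4% of 133 protein-coding genes. Across the 38 genes the interval count rose with length (Spearman's rho 0.69, a description over genes that share 1 list). Across all protein-coding genes rho was 0.29.

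**Figure D2:**
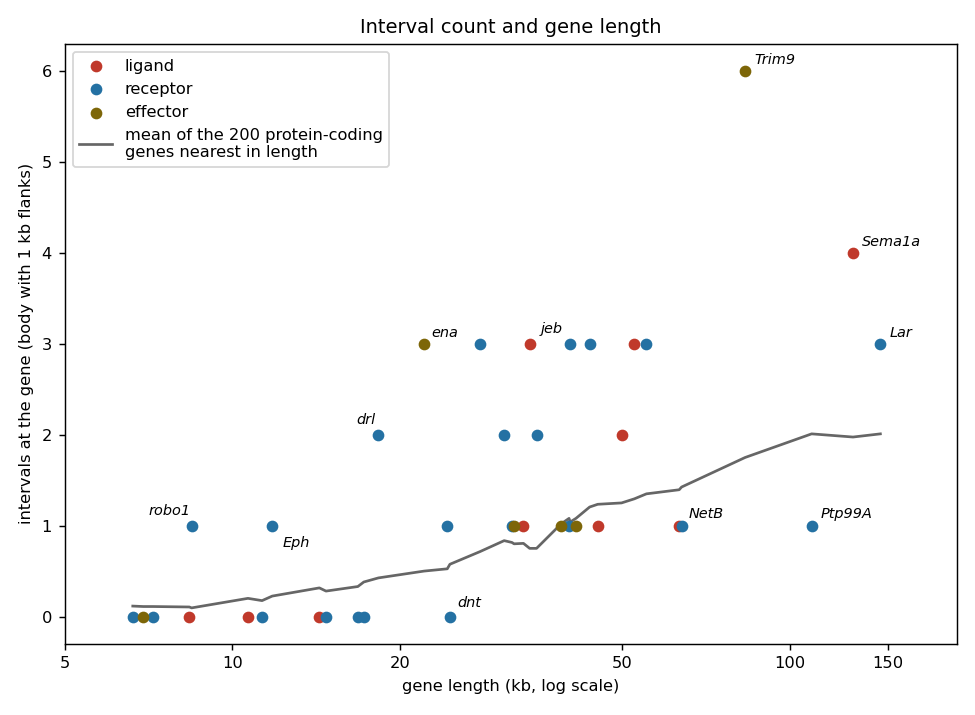
Each point is 1 of the 38 genes, with its length on a log axis (kb) and its number of intervals. The grey line is the mean count in the 200 protein-coding genes nearest in length. Trim9 has the highest count (6 intervals, against a mean of 1.75), and the gene of 20 kb or more without an interval is dnt.

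Ligands and receptors were then compared. An interval was found at 7 of 10 ligand genes (70.0%, Wilson 95% interval 39.7% to 89.2%) and at 15 of 22 receptor genes (68.2%, 47.3% to 83.6%). The difference was 1.82 percentage points, with an interval of -32.2 to 30.2 points, so these counts do not separate the classes and do not show that they are alike. The genes nearest in length had an interval in 49.4% of cases for ligands and 40.9% for receptors. Effectors had an interval at 5 of 6 genes (83.3%, 43.6% to 97.0%), against 48.0% in the genes nearest in length. With a false discovery rate of at most 0.001 an interval was left at 3 of 10 ligands, 12 of 22 receptors and 5 of 6 effectors. At that threshold the shares in the genes nearest in length were 36.3%, 29.2% and 34.8%. The ligands that kept an interval at that threshold were sli, Sema1a and jeb.

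**Figure D3:**
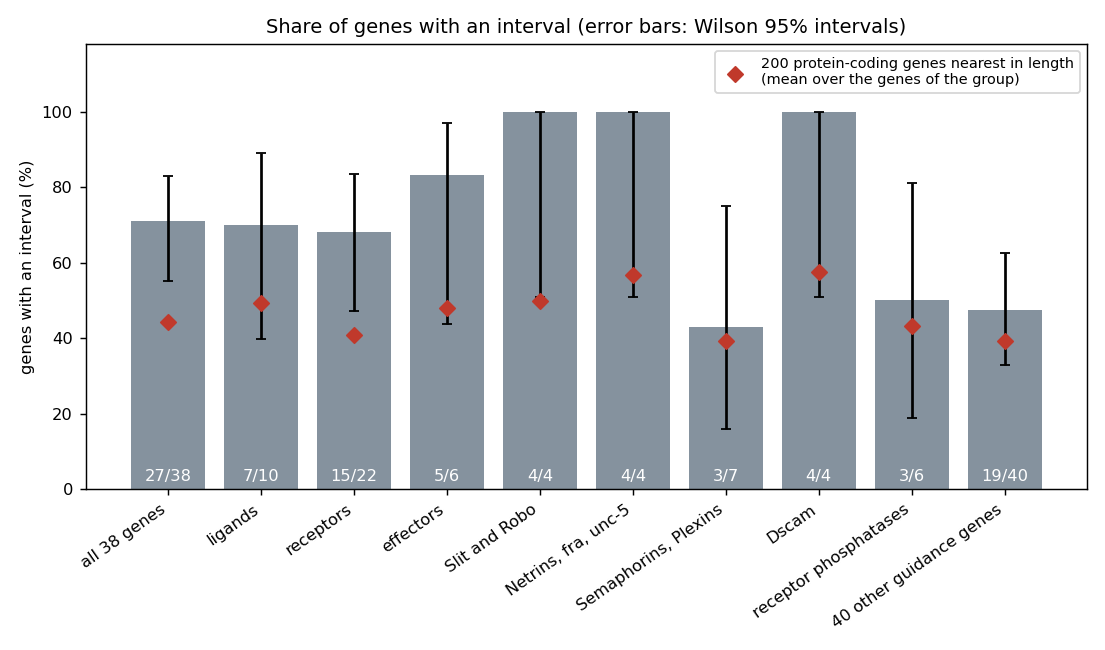
Grey columns give the share of genes with an interval (%), with counts at their base and Wilson 95% intervals as error bars. Red diamonds give the mean share in the 200 protein-coding genes nearest in length. All 4 genes of the Slit and Robo group, of the Netrin group and of the Dscam group had an interval, and 3 of 7 genes of the Semaphorin and Plexin group did.

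The Slit pathway had intervals at the ligand gene and at all 3 receptor genes (4 of 4, Wilson 95% interval 51.0% to 100%), against 49.9% in the genes nearest in length. Slit is the secreted repellent of the midline, and the Robo proteins are its receptors. At sli (CG43758, 2R, 15869495 to 15922118), 2 adjoining intervals at 15911111 to 15912656 and 15912713 to 15914402 scored 4.81 and 4.79, with a gap of 56 bp. The first ranked at position 61 of the 2394 intervals and the second at position 69. The last sli interval, at 15917005 to 15920511, had a score of 1.78 and also lay within 1 kb of lncRNA:CR44373. All sli intervals lay in the part of the gene body nearest to its upper-coordinate end, with midpoints 42388 to 49263 bp from the lower end of a gene of 52.6 kb.

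Among the receptors, robo2 (CG5481, 2L, 1380086 to 1420453) held 3 intervals inside the body. They lay at 1388595 to 1390508 (score 3.62), 1396105 to 1399165 (score 2.05) and 1405168 to 1405826 (score 4.34). Of the 200 genes nearest to robo2 in length, 21 had at least as many intervals. At robo3 (CG5423, 2L, 1256417 to 1296596), a wide interval of 3861 bp crossed the lower gene end, from 1254528 to 1258388, with a score of 3.43. Its false discovery rate of 1.2e-17 was the lowest among the 55 intervals. At robo1 (CG13521, 2R, 22692524 to 22700970), the interval at 22691461 to 22692367 with a score of 4.63 lay wholly in the flank, 157 bp from the gene body. It also overlapped the body of lncRNA:CR44764. The assignment to robo1 therefore rests on the 1 kb flank.

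The Netrin pathway likewise had an interval at each of its 4 genes, against 56.6% in the genes nearest in length, a value inside the counting interval for 4 of 4. Netrins are secreted cues, fra encodes the DCC-family receptor that mediates attraction, and unc-5 encodes a receptor that mediates repulsion. The interval with the highest score among all 55 lay in fra (CG8581, 2R, 12529053 to 12564184), at 12554835 to 12555413 with a score of 4.98. It ranked at position 32 of the 2394. A second fra interval at 12548120 to 12548969 had a score of 2.92. At unc-5 (CG8166, 2R, 15340472 to 15368300), intervals at 15351642 to 15352519 and 15352637 to 15355482 scored 4.09 and 3.01 and were 117 bp apart. Another at 15362106 to 15364302 had a score of 2.20. Together they covered 21.3% of the unc-5 body.

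The Netrin genes themselves carried lower scores than their receptors did at their highest. NetA (CG18657, X, 14604012 to 14653928) had intervals at 14645957 to 14646466 (score 3.48) and 14649077 to 14650374 (score 2.46). NetB (CG10521, X, 14686038 to 14749376) had 1 interval across its upper end, at 14747995 to 14749871, with a score of 1.74. Only 2.92% of the intervals on the 6 arms had a lower score than the one at NetB. None of the NetA and NetB intervals had a false discovery rate of at most 0.001, since their values were 0.00106, 0.0012 and 0.00156.

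In the Semaphorin and Plexin group, intervals were found at ligand genes and at neither receptor gene. In all, 3 of its 7 genes had one, against 39.1% in the genes nearest in length. Sema1a is a transmembrane Semaphorin that acts as ligand and as receptor, Sema2a and Sema2b are secreted, and the Plexins are Semaphorin receptors. Sema1a (CG18405, 2L, 8542147 to 8672041) held 4 intervals inside its body of 129.9 kb, at 8554226 to 8556187, 8583972 to 8586086, 8604708 to 8605590 and 8612178 to 8614297. Their scores of 3.79, 3.40, 3.30 and 3.59 were all above the list median. Of the 200 genes nearest to it in length, 37 had at least 4 intervals.

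The secreted Semaphorins had low-scoring intervals. Sema2a (CG4700, 2R, 16500178 to 16533459) had 1 at 16502653 to 16506087 with a score of 1.72, and Sema2b (CG33960, 2R, 16386524 to 16431758) had 1 at 16394730 to 16398489 with 2.07. Both had a false discovery rate of 0.00453. Sema1b (10.7 kb) and Sema5c (14.3 kb) had none, with the nearest interval 8136 and 14483 bp away.

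PlexA and PlexB had no interval within 24 kb of their bodies (27796 and 24473 bp to the nearest). Both lie on chromosome 4, a small and largely heterochromatic chromosome, where 13.9% of the 36 protein-coding genes of 8 to 20 kb had an interval. Most genes of this length on this chromosome thus had none either.

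Ephrin and Eph also lie on chromosome 4. Eph, the receptor tyrosine kinase of the Ephrin ligand, had 1 narrow interval of 444 bp at 611207 to 611650, inside the gene (CG1511, 610684 to 622470), with a score of 4.48. Its midpoint was 744 bp from the lower gene end. This was the single interval at the 4 genes of this list on chromosome 4. Ephrin (CG1862) had none, and its nearest interval was 26443 bp away.

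The secreted ligand Jelly belly is the activator of the receptor tyrosine kinase Alk. At jeb (CG30040, 2R, 12085194 to 12119340) 3 intervals lay at 12096851 to 12098080, 12108047 to 12112083 and 12113238 to 12116269. Their scores were 3.08, 2.10 and 2.14, and together they covered 24.3% of the body. Of the 200 genes nearest in length, 12 had at least as many. Alk had none, and with 119206 bp to the nearest interval it lay farthest from any interval among the 38 genes.

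The Dscam genes encode immunoglobulin-domain surface proteins that serve self-recognition and spacing of neurites, and all 4 had an interval. The share in the genes nearest in length was 57.5%, inside the counting interval for 4 of 4. Dscam1 (CG17800, 2R, 7317924 to 7381899), known for its very large number of splice forms, had 1 at 7378714 to 7380212 with a score of 4.05. Dscam2 (CG42256, 3L, 7159199 to 7189931) had 2, at 7164027 to 7164901 with 4.34 and at 7185125 to 7186720 with 2.61. The scores at Dscam3 and Dscam4 were lower. Dscam3 (CG31190, 3R, 17473935 to 17505667) had 1 at 17499698 to 17502787 with a score of 2.05. Dscam4 (CG42330, 3L, 8238647 to 8282398) had 3 with midpoints between 12642 and 19518 bp from its lower end, at 8249833 to 8252745, 8254895 to 8255504 and 8256294 to 8260037, with scores of 1.96, 2.36 and 2.71. All intervals of Dscam3 and Dscam4 scored below the list median, and the highest of Dscam1 and Dscam2 scored above it.

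The receptor tyrosine phosphatases, which act in the targeting of motor and photoreceptor axons, had an interval at 3 of 6 genes against 43.2% in the genes nearest in length. Every one of their 7 intervals scored below the list median, between 1.55 and 2.65. Lar (CG10443, 2L, 19586623 to 19732069), the longest of the 38 genes at 145.4 kb, had 3 intervals at 19600457 to 19603109, 19631880 to 19633903 and 19685262 to 19687873, with scores of 2.56, 2.36 and 2.65. Each of these also overlapped another annotated gene, lncRNA:CR44978 for the first and CG46244 for the others. Ptp10D (CG1817, X, 11622015 to 11677338) had 3, at 11621535 to 11623307 across its lower end, at 11626465 to 11628882 and at 11640172 to 11643376. Their scores were 1.95, 2.60 and 1.61, and the first was also within 1 kb of Met, the juvenile hormone receptor gene. Ptp99A (CG11516, 3R, 29377646 to 29487131) had 1 at 29384488 to 29386318, and its score of 1.55 was the lowest of the 55. Of the 200 genes nearest to Ptp99A in length, 146 had at least 1 interval. Ptp69D, Ptp4E and Ptp52F, with lengths of 6.62, 16.8 and 7.20 kb, had none.

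The derailed family encodes Ryk-type receptors, of which Drl is a receptor for Wnt5. At drl (CG17348, 2L, 19190342 to 19208621), 2 intervals at 19195485 to 19200273 and 19206515 to 19207255 had scores of 2.82 and 3.54. They covered 30.3% of the body, the highest coverage among the 38 genes. Of the 200 genes nearest to drl in length, 20 had at least as many intervals. At Drl-2 (CG3915, 2R, 13055246 to 13079539) the interval lay outside the body, 414 bp beyond the upper end, at 13079953 to 13082448 with a score of 3.21. The interval nearest to dnt (CG17559, 2L, 19338669 to 19363227) began 4193 bp beyond its upper end, at 19367420 to 19369736, with a score of 2.09. The gene next outside the threshold was comm, with an interval 4448 bp away. With flanks of 5 kb, dnt and comm were the genes added, and the count was 29 of 38.

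Trim9 and ena, both effectors, were the genes whose counts were reached by the fewest of the 200 genes nearest in length. They are the extremes of a ranking of 38 genes, of which 2 had a count reached by at most 5% of those 200. Of the 38 genes, 20 had more intervals than the mean of the genes nearest in length. Trim9 (CG31721, 2L, 10544883 to 10628054) encodes a tripartite-motif ubiquitin ligase of the Netrin receptor pathway. It had 6 intervals, more than any other of the 38 genes, where the 200 genes nearest in length had a mean of 1.75 and 4 of them had at least 6. Over all protein-coding genes on the 6 arms, 11 had at least 6, Trim9 included. The intervals lay at 10548297 to 10550456, 10564470 to 10566632, 10568146 to 10569628, 10590591 to 10592449, 10607100 to 10609728 and 10611095 to 10616146. Their scores were 2.80, 3.09, 3.62, 3.49, 4.58 and 1.68, so the highest and the lowest were neighbours, 1366 bp apart. The second and the third also lay within 1 kb of CG6138, a gene nested in Trim9. Without them 4 intervals remained at Trim9.

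The gene ena (CG15112, 2R, 19141632 to 19163705) encodes the actin regulator Enabled. It had 3 intervals, at 19147319 to 19149065, 19149476 to 19151161 and 19155905 to 19156517, with scores of 2.75, 3.00 and 3.99. Of the 200 genes nearest in length 3 had at least as many. The first and the second were 410 bp apart, and with intervals within 1 kb joined, ena had 2, a count reached by 17 of those 200 genes.

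Abl, trio and Mical had 1 interval each. The tyrosine kinase gene Abl (CG4032, 3L, 16615866 to 16647882) had one at 16633630 to 16634328 with a score of 3.97. The Rac exchange factor gene trio (CG18214, 3L, 995982 to 1034875) had one at 1009938 to 1012984 with a score of 3.86. Both scores were above the upper quartile of the list. At Mical (CG33208, 3R, 10001554 to 10042895), which encodes a Plexin-binding oxidoreductase that acts on actin, the interval crossed the upper end at 10041952 to 10043485 with a score of 2.66. It also overlapped CG3909. The gene comm (CG17943, 3L), whose product removes Robo from the path to the surface, had none in a body of 6.92 kb.

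**Figure D4:**
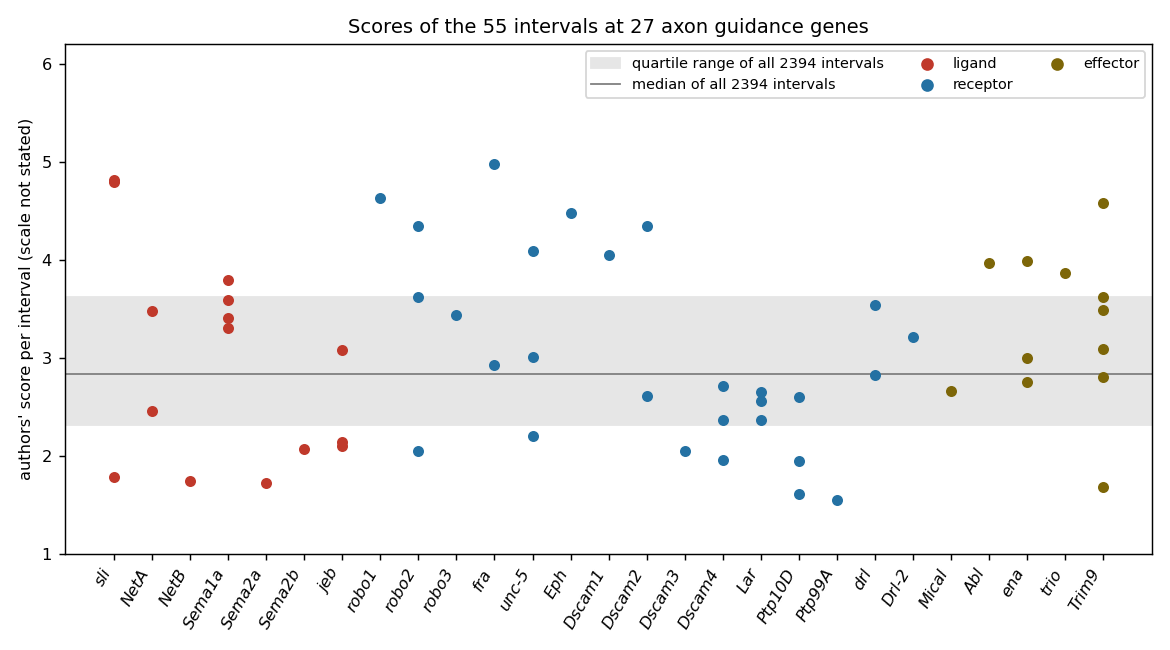
Each point is 1 of the 55 intervals, placed at its gene (x axis) by the authors' score (y axis, scale not stated). The grey line is the median of all 2394 intervals (2.83) and the band their quartile range (2.31 to 3.62). Points of Lar, Ptp10D and Ptp99A lie below the median, and fra, sli, robo1 and Trim9 reach above 4.5.

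As a set, the scores at the guidance genes were close to those of the list. Their median was 3.00 (95% interval of the median 2.61 to 3.48) against 2.83 for all intervals, and 29 of 55 (52.7%) exceeded the list median. At or above the upper quartile of 3.62 lay 16 of the 55 (29.1%), against 25.3% of all intervals. The counting interval of the difference in medians of 0.17 ran from -0.22 to 0.65 and so included 0. The difference reached 0 or below without arm 2R, without arm 2L and among scores at or above the list median. Interval widths had a median of 1914 bp against 1617 bp. Wider intervals scored lower at the guidance genes (Spearman's rho -0.56 over 55 intervals), as in the whole list (-0.44 over 2394 intervals). Both are descriptions of 1 list.

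Most of the 55 intervals lay inside gene bodies. Of the 55, 49 (89.1%) were wholly inside a gene body, 4 crossed a gene end and 2 lay in a flank only. For the 2696 other protein-coding genes at least as long as the shortest of the 38, 83.7% of 1433 gene and interval pairs were inside the body. Those genes were not further matched to the 38 in length, and no comparison set was counted for the distances given next. In long genes most of the body lies far from both ends, so those distances show no preference for the gene interior. Of the 53 midpoints inside bodies, 39 were over 5 kb from both gene ends, and 5 were within 1 kb of one. They fell about evenly over the gene bodies, with 18, 17 and 18 in 3 equal parts from the lower to the upper coordinate. The gene table carries no strand and no exons, so start sites, exons, introns and UTRs were not analysed here. No genome sequence was used, and no sequence is shown. At 46 of the 55 intervals no other annotated gene lay within 1 kb. Counting these alone, 24 of the 38 genes had an interval, against 34.7% in the genes nearest in length.

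Close neighbours make the interval count depend on where one interval is taken to end. Within single genes 28 pairs of neighbouring intervals were found, and 4 of them had a gap under 1 kb, at sli, unc-5, Dscam4 and ena. In each of these 4 pairs both intervals carried the same deposited false discovery rate. None of the 24 pairs with a wider gap did. Over the whole list, 66 of 121 pairs with a gap under 1 kb carried the same rate (54.5%). With such neighbours joined, the guidance genes held 51 intervals, and sli, unc-5, Dscam4 and ena had 2 each.

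By chromosome arm, 10 of 13 guidance genes on 2R had an interval, 6 of 7 on 2L, 4 of 7 on 3L, 3 of 3 on 3R, 3 of 4 on X and 1 of 4 on chromosome 4. The arms 2L and 2R each held 19 of the 55 intervals. For all protein-coding genes the share with an interval was 9.93% on 2R, 9.82% on 2L, 11.4% on 3L, 11.6% on 3R, 11.2% on X and 20% on chromosome 4, which has 80 of them. In the genes nearest in length to the guidance genes of each arm, it was 40.4% for 2R, 58.3% for 2L and 37.4% for 3L. The values for 3R, X and chromosome 4 were 60.5%, 57.8% and 18.5%. On 3R alone the mean count was below that of the genes nearest in length (1.0 against 1.30).

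A further 40 genes with roles in guidance and growth-cone signalling were examined in the same way. Of these, 19 had an interval (47.5%, Wilson 95% interval 32.9% to 62.5%), against 39.2% in the genes nearest in length. The counting intervals of the 38 and the 40 genes overlapped, which does not decide whether the shares differ, and no test of the difference was made. The excess over the genes nearest in length was 26.8 percentage points for the 38 genes and 8.3 for the 40. The highest counts were 5 at Ten-a and 4 each at otk and Ten-m, followed by 3 each at Sdc, fz, caps and Fas3, the last named for the tie. Ten-a and Ten-m encode teneurins, which act in synaptic partner matching, otk encodes a kinase-like receptor that binds Plexins, and Sdc encodes the heparan sulfate proteoglycan Syndecan, a Slit co-factor. The gene otk is the case of a high count in a short gene of 18.4 kb. It had 4 intervals, with scores of 3.79, 3.66, 3.02 and 2.77, where the genes nearest in length had a mean of 0.415. The last lay only in the flank, 481 bp beyond the gene end, and the second also overlapped lncRNA:CR44306. Of the small GTPase genes, which were singled out after their values were seen, Rac1, Rac2, Mtl and Cdc42 had none and Rho1 had 1. Their lengths ran from 1.8 to 4.5 kb, and between 3.0% and 9.0% of the genes nearest in length to each had an interval.

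Families of surface recognition genes gave a comparison. The dpr and DIP genes had an interval at 17 of 32 genes (53.1%, Wilson 95% interval 36.4% to 69.1%), against 43.0% in the genes nearest in length. The beat and side genes had one at 15 of 22 (68.2%, 47.3% to 83.6%), against 53.6%. The counting intervals of both overlapped that of the guidance genes, which does not decide whether the shares differ, and no test of the difference was made. The excess over the genes nearest in length was 10.2 and 14.5 percentage points, against 26.8 for the guidance genes. The median score was 2.63 at dpr and DIP genes and 2.43 at beat and side genes.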

How the data were processed

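DNA from T4/T5 neurons of 3 Dam-only and 3 Dam-Drgx samples was processed by a published DamID protocol, per the labels' protocols. The authors deposited 1 interval list with a score and, written as text, a false discovery rate per interval. The genome build was BDGP6, per the submitters' processing notes; aligner, caller, filters, replicate handling and depth are not given in the sources used here. The file has no columns of unmapped samples. Starts were raised by 1 from the BED convention. Genes came from the RefSeq table of Release 6, without strand or exons (77 of 78 examined genes matched by symbol, 1 by synonym). The yardstick was the 200 protein-coding genes nearest in log length, which for genes over 80 kb include shorter ones. The members, lists and the naming rule (every member, and up to 6 other guidance genes with most intervals) were chosen with earlier results of these data known. Shares carry Wilson 95% intervals, and differences of shares the interval built from them; the interval of a median comes from binomial ranks. No p-values were computed. Planned motif counts in promoters were not made. Overlap counting was tested on simulated data. Python 3.11.15, numpy 2.4.6, pandas 2.3.3, scipy 1.17.1 and matplotlib 3.10.9 were used.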

Additional observations from a re-analysis of the deposited data

How the results depend on the processing

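No paired analysis was possible because the interval list names no sample; for the same reason no replicate could be left out. The number of guidance genes with an interval ran from 17 to 29 over 14 alternatives, and the value of 17 was that without arm 2R, which removes 13 of the 38 genes. The excess over genes nearest in length was above 0 in all 16 alternatives and lay between 20.2 and 31.1 percentage points in 15 of them. Without length matching it was 60.2 points, since guidance genes are long. The number of intervals at guidance genes fell from 55 to 29 among scores at or above the list median, to 36 with a false discovery rate of at most 0.001, and to 36 without arm 2L or 36 without arm 2R, by the construction of these settings. The ligand minus receptor difference was above 0 in 11 of 16 alternatives and ranged from -24.5 to 10.9 points, inside its counting interval. The difference in median score ranged from -0.09 to 0.23. Counting only intervals that meet no other gene was chosen after seeing the data. With no depth given, the absence of an interval cannot be told apart from a signal below the authors' threshold.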
